A study of Mus musculus with 2 samples.

Results

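The spots described here are the 200 of 7260 Visium spots, 100 in each of 2 coronal mouse brain sections, that scored highest for 4 genes, Hap1, Baiap3, Ngb and Ahi1, in the lower part of the section. Spots qualified with at least 500 unique molecular identifiers (UMIs, counts of captured RNA molecules), an array row of 50 or more and at most 1 UMI each of Hcrt and Pmch. The score was the mean over the 4 genes of the natural log of 1 plus the count per 10000 UMIs. In the working name of this set the spots are medial and hypothalamic. Their positions, given below, went against medial, and their genes did not settle hypothalamic. Of 21 tested hypothalamic transcription factors 6 were higher than in all other spots and 1 was lower, against 3.3% and 4.48% of all genes tested. Nkx2-1, from few UMIs, did not pass the test against the other ventral spots. That reference includes the spots with most Hcrt and Pmch, so the test cannot decide the name. The set is therefore called the Hap1 and Baiap3 spots, or the chosen spots. Each section came from 1 mouse. Both mice expressed hM3Dq, an engineered receptor activated by the drug CNO, injected at 4.6 mm posterior to bregma, and both received CNO, so they form 1 group with no untreated section. Mouse 1 was labelled a wild-type C57BL/6J control and mouse 2 a wild-type isogenic control made by CRISPR-Cas9 editing, which leaves genotype, section and library confounded between the mice. The 10 µm sections lay 1.9 mm posterior to bregma, held the dorsal hippocampus of both sides and had been trimmed at the sides to fit a capture area 6.5 mm wide, so the outermost tissue is missing. The sources used here do not name the cell type that expressed the receptor or the injected side.

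Hap1 encodes huntingtin-associated protein 1, a trafficking adaptor that is abundant in the hypothalamus and in parts of the limbic forebrain such as the medial amygdala, and it binds the product of Ahi1, a protein of the ciliary transition zone that is mutated in Joubert syndrome. Baiap3 belongs to the Munc13 family, whose members prepare vesicles for release, and acts on dense-core vesicles, the carriers of neuropeptides. Ngb encodes neuroglobin, a globin of neurons. Hcrt (hypocretin, also called orexin) and Pmch (pro-melanin-concentrating hormone) are the peptide genes of the lateral hypothalamus and were used by the rule as a limit.

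Promoter sequence is shown for the score genes because their levels chose the spots. The RefSeq windows (GRCm38.p6, the mm10 assembly) held 3 of the 4 score genes, Hap1, Baiap3 and Ahi1, in 5 windows. The 250 bases before the start are printed from 5′ to 3′ on the gene's strand for 1 window of each gene, with capitals for matches on either strand to any of 4 motifs. These were a GC box, spelt GGGCGG, a CRE core, spelt TGACG, the CCAAT box by those letters, and a TATA motif, spelt TATAAA, and no match overlaps another in these windows.
Hap1 (chr11:100356142-100356391, minus strand): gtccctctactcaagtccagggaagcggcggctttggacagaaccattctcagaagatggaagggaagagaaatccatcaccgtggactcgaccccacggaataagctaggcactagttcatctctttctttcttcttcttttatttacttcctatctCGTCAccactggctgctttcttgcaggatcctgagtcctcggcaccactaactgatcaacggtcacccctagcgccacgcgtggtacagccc
Baiap3 (chr17:25256365-25256614, minus strand): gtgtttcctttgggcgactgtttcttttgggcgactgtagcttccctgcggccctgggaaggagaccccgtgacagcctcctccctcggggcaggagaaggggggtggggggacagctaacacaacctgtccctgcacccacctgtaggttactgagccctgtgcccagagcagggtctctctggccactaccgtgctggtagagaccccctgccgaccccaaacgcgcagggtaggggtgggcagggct
Ahi1 (chr10:20952297-20952546, plus strand): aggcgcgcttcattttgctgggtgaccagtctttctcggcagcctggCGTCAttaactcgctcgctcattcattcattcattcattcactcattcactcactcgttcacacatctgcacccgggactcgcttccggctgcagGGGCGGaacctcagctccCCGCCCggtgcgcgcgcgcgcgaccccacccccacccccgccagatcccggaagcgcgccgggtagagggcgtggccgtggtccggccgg
In these printed windows Hap1 held 1 CRE core and no other match, Baiap3 held none of the 4 motifs, and Ahi1 held 1 CRE core and 2 GC boxes. The Ahi1 window not printed held 1 CCAAT box and no other match. Over all 32851 windows of 250 bases, a GC box occurred in 32.7%, a CRE core in 17.8%, a CCAAT box in 33.8% and a TATA motif in 12.4%, so none of these matches is rare. The G and C content of the printed windows was 52.0% for Hap1, 64.4% for Baiap3 and 65.6% for Ahi1, against a median of 52.4% over all windows, so that Hap1 was near the median and the others above it. The other Ahi1 window was below the median, at 37.6%. The protein-coding genes span chr11:100347327-100356982 (Hap1), chr17:25242659-25256364 (Baiap3), chr10:20952232-21080429 (Ahi1) and chr12:87097531-87102539 (Ngb), so the windows of Hap1 and Ahi1 lie inside the span of their genes, before an inner start, and that of Baiap3 just before the gene.

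The chosen spots lay mostly at the outer ventral ends of the sections and not beside the midline. The midline was taken from the line that best mirrored each section, and distances are in spot pitches, the spacing of neighbouring spots. Their median distance from it was 25.004 pitches in mouse 1 and 22.8 in mouse 2, against 12.3 and 12.9 for the other ventral spots. In mouse 1, 27 of the 100 spots were within 20 pitches of the midline and the nearest was 0.028 pitches from it, whereas in mouse 2 18 were, and the nearest was 17.4 away. The limit on Hcrt and Pmch removed 821 of 1299 spots at row 50 or below it in mouse 1 and 902 of 1329 in mouse 2. Within 20 pitches of the midline it took 77.2% and 83.0% of these ventral spots, and beyond 20 pitches 18.4% and 26.6%. UMIs of the peptides were widespread: even above row 50, 286 and 221 spots held Hcrt and 487 and 762 held Pmch, of 2413 and 2219. The score then picked from 478 and 427 eligible spots, of which 253 and 262 already lay beyond 20 pitches. Of the 100 chosen in each section, 73 and 82 did.

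The sections differed in how the chosen spots were laid out. In mouse 1 they fell into 28 patches of touching spots, the largest of 33, with 48 spots left and 52 right of the midline in the image. In mouse 2 they fell into 13 patches, the largest of 73, with 76 left and 24 right. The eligible spots were themselves uneven, 299 left and 179 right in mouse 1 and 305 left and 122 right in mouse 2. At least 1 other chosen spot touched 81 spots in mouse 1 and 91 in mouse 2, and 27 and 28 lay at the tissue edge. Only 9 array positions were chosen in both sections, of the 3369 barcodes that the files share; Visium barcodes mark array positions, so these are not shared cells. The chosen spots were shallower than their neighbours, with medians of 5111 and 8360.5 UMIs against 7500 and 12346 in the other ventral spots, and the part of depth in which spots scored high was not tested.

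**Figure D1:**
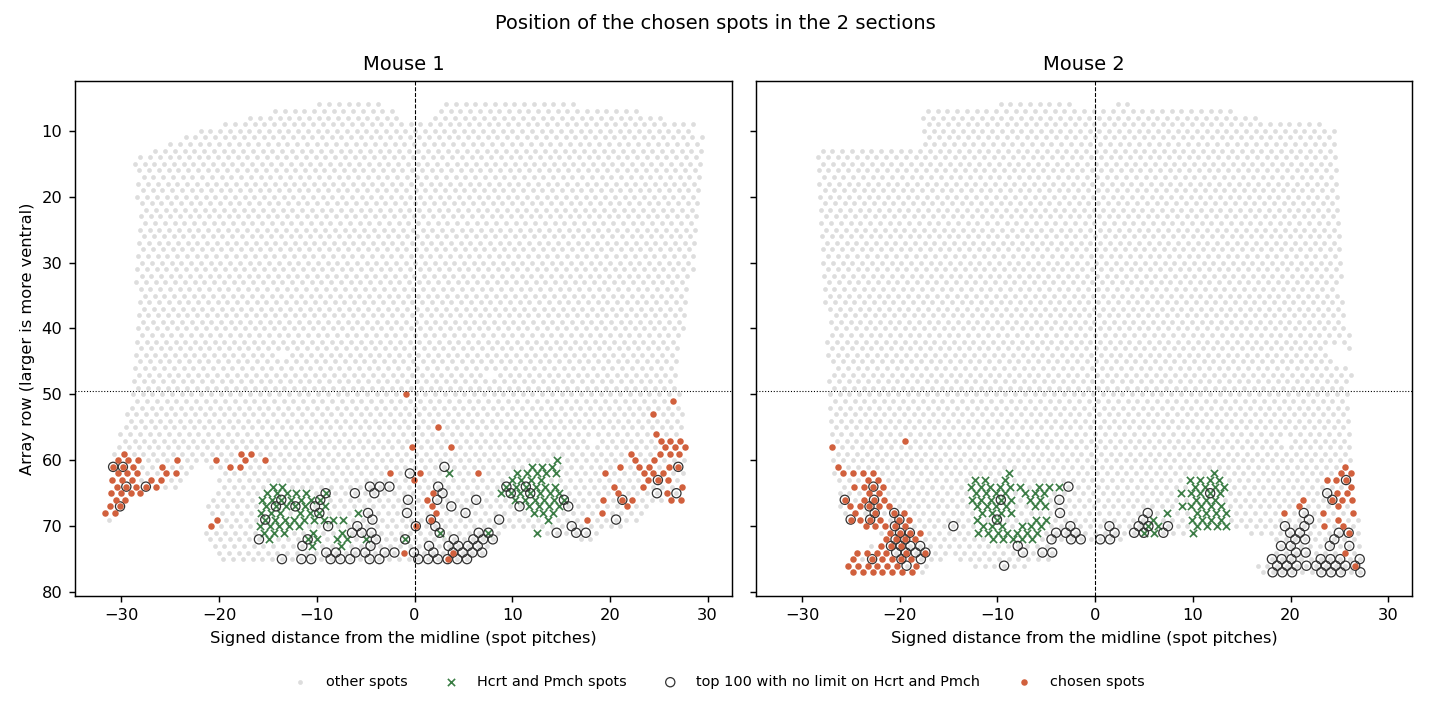
Signed distance from the midline in spot pitches (x axis) against array row, larger being more ventral (y axis), for every spot used in mouse 1 and mouse 2. Filled orange points are the 100 chosen spots, green crosses the 100 spots with most Hcrt and Pmch, open circles the 100 that the same score takes with no limit on Hcrt and Pmch, and the dotted line the row limit; 73 and 82 chosen spots lie more than 20 pitches from the dashed midline.

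The 4 score genes and the 2 limiting genes chose the spots, so their levels are given as a description with no test. Levels are UMIs of a gene per 1000000 UMIs of all genes (CPM) in the summed spots, in mouse 1 and then mouse 2. Hap1 was at 173 and 402 CPM against 46.5 and 65.3 in all other spots of the same sections, and the mice were far apart in the chosen spots. Baiap3 was at 78.4 and 119.6 CPM against 17.8 and 17.6. Ngb was at 52.9 and 92.2 CPM against 15.4 and 10.99. Ahi1, the most widely seen of the 4, was at 549 and 666 CPM against 149 and 143. The means over the mice were 5.15 times those of the other spots for Hap1, 5.59 for Baiap3, 5.51 for Ngb and 4.16 for Ahi1. Hcrt stood at 38.3 and 18.2 CPM against 544 and 248 and Pmch at 72.9 and 39.9 CPM against 1278 and 1418.

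Single spots held few molecules of the score genes. Hap1 was seen in 62 and 98 of the 100 spots, with a median of 1 and 3 UMIs and at most 7 and 10. Ahi1 was seen in 97 and 100, with a median of 2 and 5. Baiap3 was seen in 29 and 60, and Ngb in 26 and 51, with medians of 0 in mouse 1 and 1 in mouse 2 for each. All 4 genes were present together in 5 spots of mouse 1 and 30 of mouse 2, and 20 spots of mouse 1 had 1 score gene alone. The score ran from 1.83 down to 0.432 in mouse 1 and from 2.07 down to 0.800 in mouse 2, and the first spots left out scored 0.424 and 0.789, so the border follows no gap. In mouse 1 the 27 inner spots and the 73 outer ones both held the score genes, at 201 and 162 CPM of Hap1, 94.4 and 71.9 of Baiap3, 62.9 and 48.8 of Ngb and 604 and 526 of Ahi1.

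The score genes were also abundant elsewhere. In the 100 spots of each section with most Hcrt and Pmch, Hap1 was at 198 and 262 CPM, Baiap3 at 98.5 and 100 CPM, Ngb at 81.95 and 57.4 CPM and Ahi1 at 477 and 443 CPM. For Hap1, Baiap3 and Ngb those levels were above the chosen spots in mouse 1 and below them in mouse 2. With no limit on Hcrt and Pmch, an alternative added after the data were seen, the 100 top spots shared 12 and 24 spots with the chosen ones and 89 and 52 of them were within 20 pitches of the midline. In those spots Hap1 reached 383 and 548 CPM and Baiap3 179.7 and 210.3 CPM. Nkx2-1, a transcription factor of the developing and adult hypothalamus, was then at 26.7 and 8.03 CPM.

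**Figure D2:**
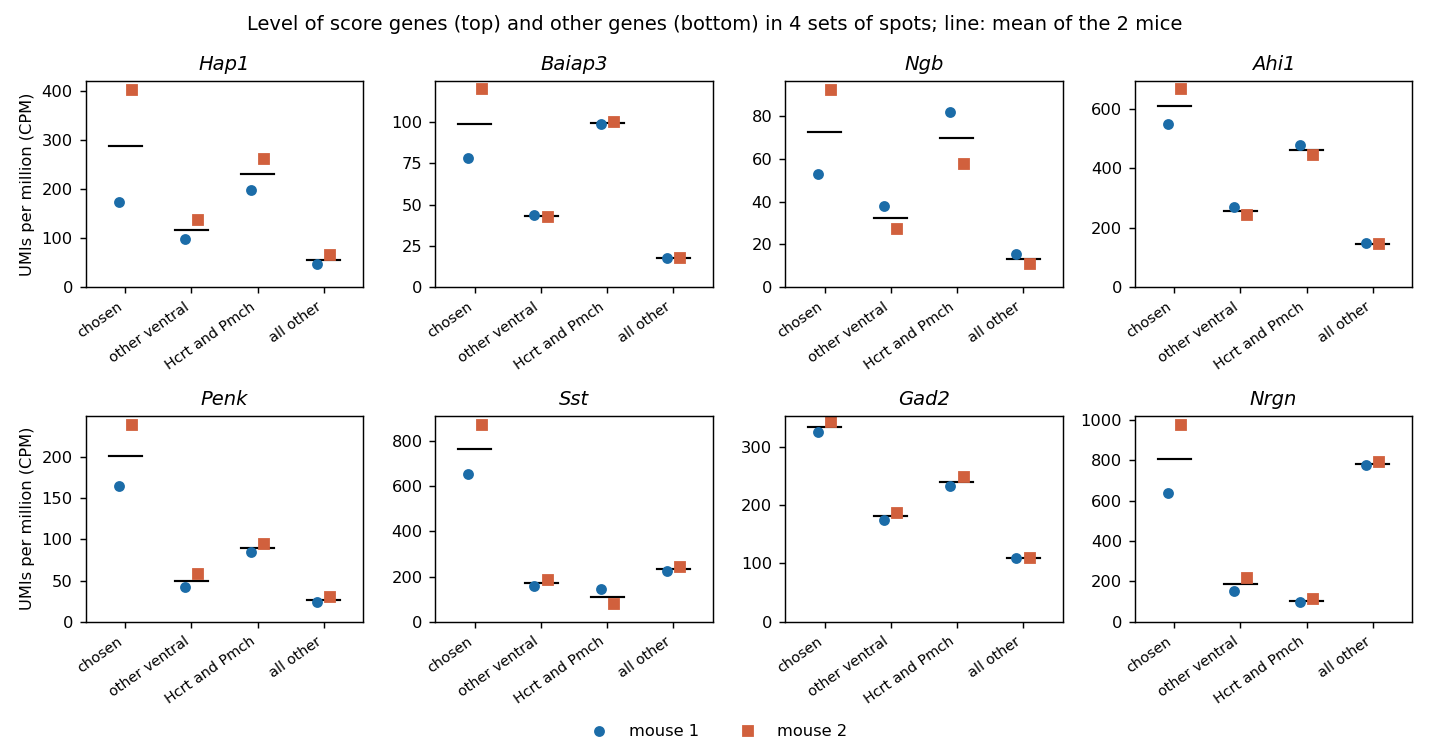
Level in CPM (y axis, from 0) of the 4 score genes (top) and of Penk, Sst, Gad2 and Nrgn (bottom) in the chosen spots, the other ventral spots, the Hcrt and Pmch spots and all other spots (x axis). Circles are mouse 1, squares mouse 2 and lines their mean. In the Hcrt and Pmch spots Hap1, Baiap3 and Ngb are above the chosen spots in mouse 1 and below them in mouse 2. Ahi1 is below the chosen spots in both mice, and Nrgn is at 95.4 and 112 CPM there and at 638 and 976 CPM in the chosen spots.

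Against all other spots, all 8 tested thalamic genes were lower in the chosen spots, and the other lists were called only in part. Of 26 neuropeptide genes 11 were higher and 5 lower, and of 33 imprinted genes 15 were higher and 1 lower. UMIs were summed per section and spot set and fitted with edgeR's quasi-likelihood test with the section as a block, and Benjamini-Hochberg adjusted p-values under 0.05 were called. Without the 6 rule genes, 1176 of 15119 genes were called (7.78%), 499 higher (3.3%) and 677 lower (4.48%). Each fit had 4 libraries and 1 residual degree of freedom, so each SE draws chiefly on the spread shared by all genes rather than on that between the mice. In the fits against all other spots and against other ventral spots it draws on the shared spread alone. The values of each mouse are therefore given. The labels name 2 mice and 1 section of each, so p-values say nothing of other mice. A spot holds several cells, and a lower level can come from fewer cells of a type or from less RNA per cell, which cannot be told apart here.

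The neuropeptide genes tested had a median log2 ratio of 0.83 against -0.05 over all genes tested. Penk, the precursor of enkephalins, was at 164 and 239 CPM against 23.9 and 29.7 (log2 2.95, SE 0.18, adjusted p = 9.0e-59). Sst, somatostatin, was at 652 and 872 CPM against 225 and 244 (log2 1.74, SE 0.13, adjusted p = 1.7e-37). Crh, corticotropin-releasing hormone, was at 18.2 and 11.4 CPM against 3.69 and 3.53 and lost its call in the top 50 spots. Pdyn (prodynorphin) at 74.7 and 64.9 CPM against 12.5 and 10.4 and Nts (neurotensin) at 182 and 133 CPM against 32.00 and 21.1, named after their values were seen, were also higher. In all 5 of these genes the chosen spots of each mouse were above the other spots of both mice. Vip was lower at 1.82 and 1.14 CPM against 13.4 and 12.8 (log2 -3.17, SE 0.75, adjusted p = 0.00069), a call that neither DESeq2 nor the top 50 spots kept. Ucn3, urocortin 3, was higher at 1.82 and 9.11 CPM against 0.730 and 1.14, from few UMIs, and was not called by DESeq2, without the section term, without the low-count filter or in the outer spots. Avp, vasopressin, was lower at 25.5 and 0 CPM against 45.6 and 9.24, but its 14 UMIs all came from mouse 1, and with no limit on Hcrt and Pmch its sign turned.

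Of the 14 genes of granins and peptide processing, 4 were higher and 3 lower, against 3.3% and 4.48% of all genes tested. Resp18, a protein of secretory granules, was at 456 and 528 CPM against 283 and 261 and higher (log2 0.90, SE 0.13, adjusted p = 1.7e-09), whereas Pcsk2, a convertase that cuts prohormones, was at 85.7 and 96.8 CPM against 226 and 259 and lower (log2 -1.37, SE 0.17, adjusted p = 2.1e-13). Both calls held in each alternative. Of 32 peptide and hormone receptors 3 were higher and none lower, of which DESeq2 called 1. Thra, a thyroid hormone receptor, was at 309.9 and 358 CPM against 216 and 239.6 and was not called without the section term or in the top 200 spots. Gpr101, an orphan receptor named after its values were seen, was higher at 14.6 and 46.7 CPM against 3.52 and 4.76 (log2 2.94, SE 0.38, adjusted p = 1.9e-12).

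Imprinted genes, which are expressed from 1 parental copy and are frequent in hypothalamus and amygdala, had a median log2 of 0.74. Zim1 was at 7.29 and 18.2 CPM against 1.96 and 2.61 (log2 2.56, SE 0.57, adjusted p = 0.00028). Magel2, a gene of the Prader-Willi region, was at 7.29 and 21.6 CPM against 3.55 and 3.62, but neither DESeq2 nor the outer spots alone kept its call. Peg10 was at 16.4 and 21.6 CPM against 6.04 and 4.78 (log2 1.92, SE 0.42, adjusted p = 0.00019). In each of these genes mouse 2 was the higher of the mice in the chosen spots. Nnat, neuronatin, named after its values were seen, was at 494 and 589 CPM against 179.6 and 220.3.

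The inhibitory transmitter genes were higher in 3 of 8 and lower in none, with a median log2 of 0.81, and the glutamate genes lower in 3 of 6 and higher in none, with a median of -0.98. Among all genes tested 3.3% were higher and 4.48% lower. Gad2, an enzyme that makes GABA, was at 324 and 342 CPM against 109.9 and 109 (log2 1.65, SE 0.15, adjusted p = 3.0e-26). Slc32a1, the vesicular GABA transporter, was at 94.8 and 162 CPM against 53.6 and 63.3, and Dlx1, a transcription factor of GABA neurons, at 12.8 and 29.6 CPM against 4.55 and 5.35. Slc17a7, the vesicular glutamate transporter of cortex, was lower at 32.8 and 70.6 CPM against 228 and 277. Slc17a6, its counterpart in thalamus and hypothalamus, was lower at 54.7 and 106 CPM against 187 and 226. These 5 calls held in each alternative that gave a value. Ddc, the aromatic amino acid decarboxylase, was the 1 gene of 8 called on the list of monoamine and acetylcholine genes, at 38.3 and 39.9 CPM against 14.8 and 14.97 (log2 1.44, SE 0.29, adjusted p = 2.8e-05).

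The score genes were high by the rule, so their partners are set beside all genes tested, of which 3.3% were higher and 4.48% lower. Of 15 genes whose products bind or work with those of Hap1 and Ahi1, none was higher and 3 were lower, with a median log2 of -0.22. Kalrn, a guanine nucleotide exchange factor that binds Hap1, was at 29.2 and 34.2 CPM against 82.5 and 99.99 (log2 -1.49, SE 0.23, adjusted p = 1.7e-08). Itpr1, a calcium channel of the endoplasmic reticulum, was at 41.9 and 70.6 CPM against 117 and 115 and was not called without the section term. Sort1, sortilin, was at 109 and 63.8 CPM against 123 and 134 and was lost in 5 alternatives. Of 12 genes of the Munc13 family and vesicle priming, none was higher and 4 were lower, with a median log2 of -0.47. Snap25, a SNARE protein of the presynaptic membrane, was at 704 and 855 CPM against 1747 and 1883 (log2 -1.18, SE 0.12, adjusted p = 7.0e-22), and Cadps, which primes dense-core vesicles, at 61.97 and 70.6 CPM against 144 and 156 (log2 -1.13, SE 0.19, adjusted p = 1.4e-07). The log2 of Snap25 was -1.31 in mouse 1 and -1.14 in mouse 2, and that of Cadps -1.21 in mouse 1 and -1.15 in mouse 2.

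All 8 thalamic genes were lower, with a median log2 of -2.32, among them Prkcd at 74.7 and 71.7 CPM against 412 and 528 and Tnnt1 at 20.1 and 23.9 CPM against 148 and 162. Of 12 genes of cortex and hippocampus 6 were lower and 1 higher, and Neurod6, a transcription factor of pyramidal neurons, was at 12.8 and 4.55 CPM against 56.8 and 64.05. Of 6 genes listed for reticular thalamus and zona incerta 3 were higher and 1 lower. Meis2, a homeobox factor, was at 74.7 and 104 CPM against 24.6 and 25.8, Ecel1, a membrane endopeptidase, at 36.5 and 37.6 CPM against 11.9 and 9.88, and Pvalb, a calcium buffer, lower at 126 and 42.1 CPM against 414 and 319. Of 21 hypothalamic transcription factors 6 were higher and 1 lower, with a median log2 of 0.83. Genes listed for hypothalamic nuclei were higher in 3 of 6 for the ventromedial, 3 of 9 for the arcuate, 2 of 5 for the paraventricular and 0 of 5 for the dorsomedial nucleus, and lower in 0, 1, 2 and 0. Over all genes tested 3.3% were higher and 4.48% lower. The ventromedial list summed to 175 and 336 CPM, of which 131 and 232 were Gda, guanine deaminase, a gene not confined to the ventral spots. Otp, a factor of neuroendocrine neurons, was at 7.29 and 17.1 CPM against 2.19 and 2.20 (log2 2.58, SE 0.59, adjusted p = 0.00038). Fezf1, a factor of the ventromedial nucleus, was at 10.9 and 15.9 CPM against 3.35 and 0.533, a log2 of 1.67 in mouse 1 and 4.73 in mouse 2, and was not called in the outer spots alone or without the section term. Nkx2-1 was at 7.29 and 3.42 CPM against 2.29 and 2.19 and did not pass the test (adjusted p = 0.50). Nhlh2 had no UMI in the chosen spots of either mouse, which makes it at least 1.65-fold lower when a floor of 3 UMIs per library is set, and DESeq2 did not call it. Of the 32 hypothalamic factors listed, 4 had no UMI in the chosen spots.

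None of 9 oligodendrocyte and none of 11 microglial genes passed edgeR's test, with 0 at an unadjusted p under 0.05 and 0 called by DESeq2 in either list, and their summed levels were 14090 and 8440 CPM against 10760 and 11320, and 707 and 556 CPM against 614 and 560. The oligodendrocyte sum was above the other spots in mouse 1 and below them in mouse 2. Ttr, the main product of the choroid plexus, was at 76.5 and 33.03 CPM against 3640 and 2541 (log2 -5.85, SE 0.15, adjusted p = 6.0e-298). Folr1, Kcnj13 and Tmem212, genes of choroid plexus and ependyma, had no UMI, at least 2.8-fold, 1.51-fold and 1.74-fold lower. Of 5 blood genes 4 were lower, through mouse 2 alone: Hbb-bs was at 1150 and 637 CPM against 1037 and 1744, a log2 of 0.15 in mouse 1 and -1.45 in mouse 2. The blood sum was 1737 and 1196 CPM against 1571 and 3297, and its part in the other results was not tested.

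Outside the lists, the largest rises among genes of at least 100 CPM were in Atp2b4, a plasma membrane calcium pump, at 47.4 and 203 CPM against 24.6 and 28.2, Tmem91 at 100.2 and 113 CPM against 31.8 and 29.02 and Pnck, a calcium/calmodulin-dependent kinase, at 149.5 and 224 CPM against 56.1 and 59.2. Atp2b4 rose by unlike amounts, log2 0.94 in mouse 1 and 2.84 in mouse 2. Hpcal4, a neuronal calcium sensor, was at 206 and 354 CPM against 99.5 and 113, Zcchc12 at 153 and 247 CPM against 72.1 and 78.3 and Ly6h at 452 and 747 CPM against 239.5 and 238. The fits called these 6 in every alternative. Lrrc17 at 162 and 1929 CPM against 61.8 and 616, Bc1 at 607 and 3087 CPM against 282 and 1067 and Tatdn1 at 76.5 and 539 CPM against 40.4 and 184 were higher in the chosen spots of both mice while their level differed several-fold between the sections, and without the section term they were not called.

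**Figure D3:**
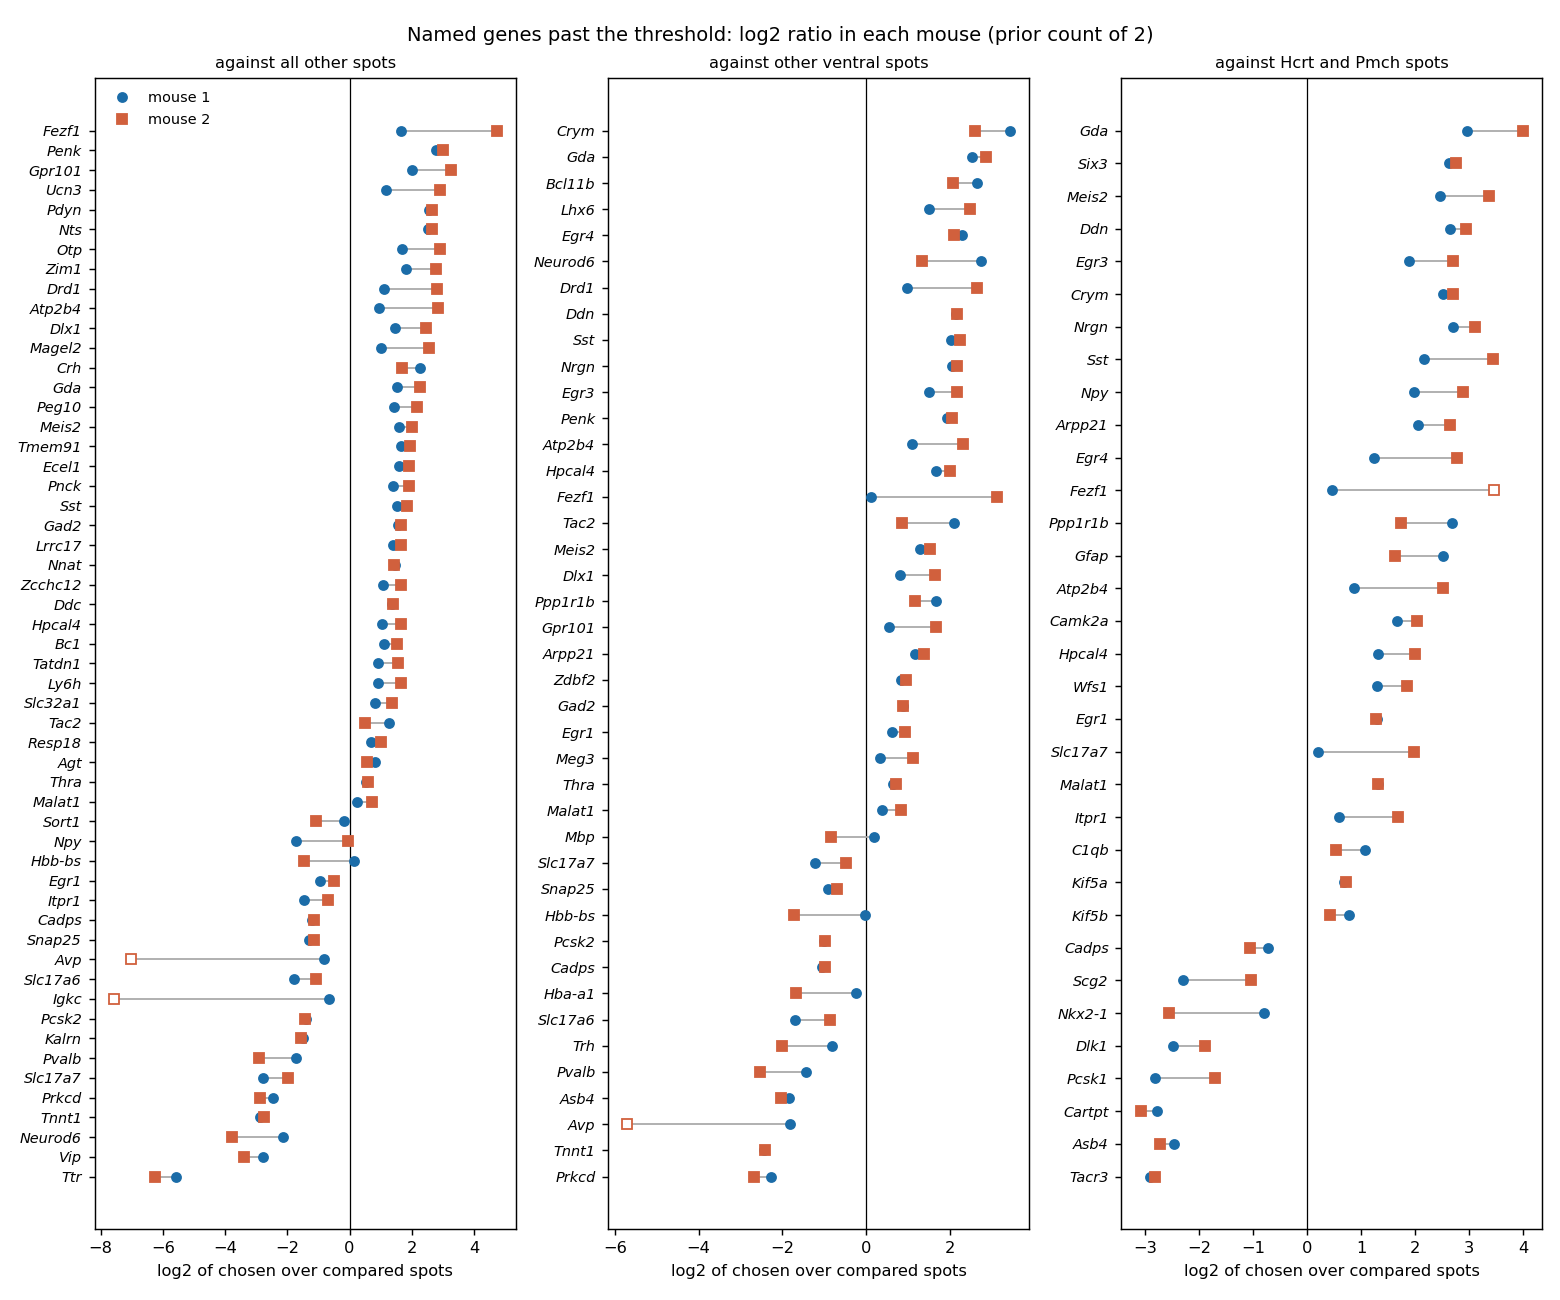
Log2 ratio of the chosen spots over the compared spots (x axis, prior count of 2) in mouse 1 (circles) and mouse 2 (squares) for the genes past the threshold that the text names (y axis), in 3 comparisons that share the chosen spots. Open symbols are mice with 0 UMIs in 1 of the sets; genes with 0 UMIs in the chosen spots of both mice are left out, and Penk, Sst and Gda lie to the right of 0 in each panel that shows them.

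Against the other ventral spots, 5 of 10 genes listed for cortex and hippocampus were higher in the chosen spots and 1 was lower, and all 8 genes listed for thalamus were lower. The fit called 733 of 13044 genes (5.62%), 388 higher (2.97%) and 345 lower (2.64%). The 1199 and 1229 other ventral spots include the 821 and 902 that the limit on Hcrt and Pmch had removed. Differences from them can thus come from the limit as well as from the score, and the part of each was not tested. Bcl11b, a transcription factor of deep cortical and striatal neurons, was at 23.7 and 29.6 CPM against 3.42 and 6.84, and Lhx6, a factor of ventral telencephalic interneurons and medial amygdala, at 5.47 and 18.2 CPM against 1.66 and 3.08; both were named after their values were seen, Bcl11b was not called with no limit on Hcrt and Pmch, and Lhx6 was not called by DESeq2 or without the section term. Nkx2-1 was at 7.29 and 3.42 CPM against 6.95 and 6.78 and Nkx2-2 at 9.11 and 5.69 CPM against 7.99 and 9.001, and neither passed the test (adjusted p = 0.83 and 0.89).

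The genes of cortex and hippocampus had a median log2 of 1.29 against 0.00 over all genes, and DESeq2 called 3 of them. Nrgn, neurogranin of postsynaptic spines, was at 638 and 976 CPM against 154 and 217 (log2 2.13, SE 0.14, adjusted p = 8.2e-50), and Ddn, dendrin, at 40.1 and 72.9 CPM against 8.71 and 16.03 (log2 2.20, SE 0.28, adjusted p = 8.6e-13). Neurod6, lower against all other spots, was higher here at 12.8 and 4.55 CPM against 1.56 and 1.67, from few UMIs, and was lost in 6 alternatives. Of 7 striatal and amygdalar genes 3 were higher, against 2.97% of all genes tested. Ppp1r1b, the phosphoprotein DARPP-32 of dopamine-receptive neurons, was at 47.4 and 41.00 CPM against 14.7 and 18.2, but DESeq2 and the top 50 spots did not call it and its sign turned with no limit on Hcrt and Pmch. Drd1, the D1 dopamine receptor, was at 5.47 and 15.9 CPM against 2.59 and 2.34 and was not called by DESeq2, without the section term or in the top 200 spots. Crym, a thyroid hormone-binding protein listed for tanycytes, was at 36.5 and 33.03 CPM against 3.01 and 5.24 (log2 3.04, SE 0.38, adjusted p = 6.2e-13). The other 4 tested tanycyte genes did not pass.

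Of 23 peptide genes tested, 7 rose and 5 fell, against 2.97% and 2.64% of all genes, with a median log2 of 0.23. Penk was at 164 and 239 CPM against 42.3 and 57.7 (log2 2.03, SE 0.18, adjusted p = 7.4e-27) and Sst at 652 and 872 CPM against 159 and 185 (log2 2.16, SE 0.14, adjusted p = 4.3e-50). Tac2, neurokinin B, was at 96.6 and 66.05 CPM against 22.1 and 36.4, and was not called without the section term or in the top 200 spots. Avp was lower at 25.5 and 0 CPM against 90.1 and 11.96, Trh, thyrotropin-releasing hormone, lower at 7.29 and 4.55 CPM against 13.1 and 19.1, and Th, tyrosine hydroxylase, had no UMI, at least 1.1-fold lower. With no limit on Hcrt and Pmch the signs of Avp, Trh and Th turned, and none of the 3 was called by DESeq2. Gda, listed for the ventromedial nucleus, was at 131 and 232 CPM against 22.3 and 31.8 (log2 2.75, SE 0.19, adjusted p = 5.4e-43). In all other spots of the sections Gda was at 45.9 and 48.3 CPM, above the other ventral spots, so it does not single out that nucleus here. Gad2 remained higher at 324 and 342 CPM against 175 and 186 (log2 0.90, SE 0.15, adjusted p = 2.4e-07) except with no limit on Hcrt and Pmch, and Slc17a6 lower at 54.7 and 106 CPM against 179 and 194 except without the section term.

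Of 33 imprinted genes 6 were higher and 1 lower, against 2.97% and 2.64% of all genes, with a median log2 of 0.19. Meg3, a noncoding RNA, was at 868 and 1818 CPM against 693 and 829.9, and Zdbf2 at 43.7 and 47.8 CPM against 24.5 and 24.7; both were lost in DESeq2, without the section term and in the top 200 spots. Asb4, which is expressed in hypothalamic neurons, was lower at 3.65 and 2.28 CPM against 14.01 and 10.1, and its sign turned with no limit on Hcrt and Pmch. None of the 15 partners of Hap1 and Ahi1 passed edgeR's test, with 0 at an unadjusted p under 0.05 and 0 called by DESeq2. All 8 thalamic genes were lower, with a median of -2.15, as in Prkcd at 74.7 and 71.7 CPM against 360.3 and 461 (log2 -2.48, SE 0.18, adjusted p = 5.4e-41). Their summed level was 315 and 222 CPM against 1169 and 1338. Against the Hcrt and Pmch spots, at 144 and 180 CPM, none of 6 passed edgeR's test. There 3 were at an unadjusted p under 0.05, DESeq2 called 0 and the median log2 was 0.63. Lower thalamic levels thus depended on the spots compared.

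Of 14 immediate early genes, which neurons transcribe briefly after activity, 3 were higher than in the other ventral spots (2.97% of all genes), with a median log2 of 0.29. Against all other spots none of 17 was higher (3.3% of all genes) and 1 was lower (4.48%), with a median of -0.54. The lower gene, Egr1, lost its call in 5 alternatives. Against the Hcrt and Pmch spots 3 of 6 were higher (2.97% of all genes), with a median of 1.15. The low-count filter can keep a gene through the chosen spots and left unlike sets of genes, so these counts and medians cannot be compared. The summed level of all 17 listed genes was 289.8 and 373.5 CPM in the chosen spots and 384 and 415 in all other spots. It was 249 and 266 in the other ventral spots and 228 and 239 in the Hcrt and Pmch spots. Against the other ventral spots Egr4 was at 18.2 and 13.7 CPM against 3.42 and 3.02, Egr3 at 10.9 and 33.03 CPM against 3.63 and 7.15 and Egr1 at 41.9 and 69.5 CPM against 27.2 and 36.2, and DESeq2 called no gene of the list in any of these 3 comparisons. Fos was at 16.4 and 6.83 CPM against 9.75 and 9.31 (adjusted p = 0.92) and Arc at 3.65 and 9.11 CPM against 10.9 and 9.49 (adjusted p = 0.72), with the mice on opposite sides for Fos. No section without CNO was measured, so these levels have no reference. Oligodendrocyte genes were lower in 3 of 9, none of them called by DESeq2, and their summed level was 14090 and 8440 CPM against 12840 and 15820, higher in mouse 1 and lower in mouse 2. Mbp, myelin basic protein, named after its values were seen, was at 6403 and 3705 CPM against 5596 and 6585. Blood genes were lower in 4 of 5, again through mouse 2: Hba-a1 was at 213 and 263 CPM against 253 and 839. The part of myelin and blood in the other differences was not tested.

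The 73 and 82 chosen spots beyond 20 pitches from the midline were also taken alone, an alternative chosen after the data were seen. They were set against all remaining ventral spots, 1226 and 1247, the inner chosen spots included, and 586 genes were called. Of these, 533 were among the 733 called with all chosen spots. Most chosen spots are in both fits, so this overlap was largely set beforehand. In the outer spots Penk stood at 205.3 and 259.8 CPM and Sst at 816 and 899 CPM. In mouse 1, the 27 inner spots held 29 of the 38 UMIs of Gal, the peptide galanin.

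The chosen spots were also set against the spots with most Hcrt and Pmch, in which the score genes stood at the levels given above. Both sets were picked by Hcrt and Pmch, so genes made in the same cells as these peptides differ in part through that choice. How many of the calls below follow from it was not tested. The fit called 470 of 9102 genes (5.16%), 270 higher (2.97%) and 200 lower (2.2%). The Hcrt and Pmch spots lay at median distances of 12.3 and 10.1 pitches and had medians of 8810.5 and 16150 UMIs, deeper than the chosen spots. Meis2 was at 74.7 and 104 CPM against 11.4 and 8.64 (log2 3.17, SE 0.32, adjusted p = 4.8e-12), and Six3, also a homeobox factor, at 45.6 and 21.6 CPM against 5.19 and 1.85, which DESeq2 did not call. Nkx2-1 was lower at 7.29 and 3.42 CPM against 14.5 and 27.8, a call lost in DESeq2, without the section term and with no limit on Hcrt and Pmch.

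Among 16 peptide genes 5 were higher and 4 lower, against 2.97% and 2.2% of all genes tested. Sst was at 652 and 872 CPM against 143 and 79.03 (log2 2.80, SE 0.18, adjusted p = 3.4e-22), and Npy, neuropeptide Y, at 36.5 and 101 CPM against 7.26 and 12.3 (log2 2.78, SE 0.35, adjusted p = 5.6e-09). Npy had been lower than in all other spots, at 36.5 and 101 CPM against 119 and 105, mainly in mouse 1 and lost in 5 alternatives, so its direction depends on the spots compared. Cartpt, a peptide made in cells that make Pmch, was lower at 109 and 81.99 CPM against 767 and 708. The limit and the ranking by Pmch set this direction beforehand, so its test is not given. Of 14 genes of peptide processing 6 were lower and none higher, with a median log2 of -0.67 against 0.01 over all genes. Pcsk1, the other main prohormone convertase, was at 12.8 and 19.4 CPM against 106 and 66.7 and Scg2, secretogranin 2, at 323 and 614 CPM against 1600 and 1257. These directions too can follow from the choice of both sets by Hcrt and Pmch, so the tests are not given. Tacr3, the neurokinin 3 receptor, was lower at 1.82 and 4.55 CPM against 31.1 and 41.98; DESeq2 called neither Scg2 nor Tacr3.

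Of 30 imprinted genes 7 were lower and 2 higher, against 2.2% and 2.97% of all genes tested, with a median log2 of -0.26. Dlk1, a Notch-pathway ligand, was at 38.3 and 42.1 CPM against 227 and 160.5. Asb4 was at 3.65 and 2.28 CPM against 32.2 and 24.1 and was not called by DESeq2 or with no limit on Hcrt and Pmch. The choice of both sets by Hcrt and Pmch can set these directions, so their tests are not given. None of 6 inhibitory transmitter genes passed edgeR's test, with 3 at an unadjusted p under 0.05 and 0 called by DESeq2. Of 15 partners 3 were higher, against 2.97% of all genes tested, and DESeq2 called none. The kinesins, motors that Hap1 links to cargo, were among them, Kif5a at 632 and 579.7 CPM against 393 and 353 and Kif5b at 329.9 and 305 CPM against 191 and 228, and both turned sign with no limit on Hcrt and Pmch. Itpr1 was at 41.9 and 70.6 CPM against 26.97 and 20.99.

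Over all genes tested 2.97% were higher and 2.2% lower than in the Hcrt and Pmch spots. Genes of cortex and hippocampus were higher in 4 of 8, with Nrgn at 638 and 976 CPM against 95.4 and 112 (log2 2.91, SE 0.16, adjusted p = 1.6e-25) and Ddn at 40.1 and 72.9 CPM against 4.15 and 8.03. Outside the lists, Arpp21, a phosphoprotein of forebrain neurons, was at 85.7 and 132 CPM against 18.7 and 19.8, and Camk2a, the calcium/calmodulin kinase of excitatory synapses, at 78.4 and 154 CPM against 22.8 and 36.4; these 2 kept their call in each alternative. Of 11 astrocyte genes 4 were higher and 1 lower, and Gfap, a filament protein of astrocytes, was at 173 and 79.7 CPM against 28.01 and 24.7 (log2 2.10, SE 0.26, adjusted p = 3.3e-09), though not called with no limit on Hcrt and Pmch. Summed astrocyte markers were 2216 and 1832 CPM against 1298 and 1618, and summed microglial markers 707 and 556 CPM against 432 and 390, with 1 of 11 microglial genes, C1qb, called, which DESeq2 did not call. Malat1, a nuclear RNA, was at 1289 and 1777 CPM against 519 and 711 (log2 1.28, SE 0.12, adjusted p = 4.0e-13). The part of glia and of nuclear RNA in the neuronal differences was not tested.

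The chosen spots also varied among themselves. The 50 nearest the midline in each section, at median distances of 19.2 and 20.8 pitches, were compared with the 50 farthest, at 28.2 and 24.8 pitches, and 19 of 5561 genes differed (0.342%), 4 higher near the midline (0.0719%) and 15 higher far from it (0.27%). Near spots had more Tac1, the precursor of substance P, at 70.7 and 178 CPM against 18.8 and 55.4 (log2 1.72, SE 0.33, adjusted p = 0.0023), more Gpx3, a secreted glutathione peroxidase, at 67.2 and 117 CPM against 11.3 and 39.9 (log2 1.77, SE 0.38, adjusted p = 0.011), and more Agt, angiotensinogen of astrocytes, at 304 and 216 CPM against 82.8 and 119.7. Far spots had more of 4 peptides among the 10 tested. Tac2 was at 24.8 and 2.34 CPM against 173 and 126 (log2 -3.65, SE 0.44, adjusted p = 1.7e-07), Nts at 31.8 and 53.9 CPM against 342 and 208 (log2 -2.53, SE 0.28, adjusted p = 2.7e-08), Pdyn at 14.1 and 21.1 CPM against 139 and 106 (log2 -2.69, SE 0.39, adjusted p = 2.2e-05) and Penk at 45.97 and 189.8 CPM against 289.6 and 286. Tac2 came from few spots, since 10 spots held 71.7% of its UMIs in mouse 1 and 77.6% in mouse 2. Meis2 was higher far from the midline at 21.2 and 49.2 CPM against 132 and 155 (log2 -1.96, SE 0.33, adjusted p = 0.00021), as was Wfs1, wolframin, at 38.9 and 65.6 CPM against 181 and 153. Ncdn, neurochondrin, had the closest values between mice, -1.27 in mouse 1 and -1.27 in mouse 2 on the log2 scale.

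None of these calls held without the section term, and DESeq2 called 3, Tac2, Nts and Ncdn. In mouse 1 the near spots include those beside the midline itself, and in mouse 2 they do not, so near means another place in each section. Summed oligodendrocyte markers were 16280 and 8369 CPM near and 11770 and 8506 far, and summed blood markers 1365 and 860 CPM near and 2133 and 1513 far, with 2 of 4 blood genes lower near the midline.

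Between upper and lower chosen spots, myelin genes were among those that differed. The 52 and 53 upper spots against the 48 and 47 lower ones gave 129 of 5457 genes called (2.36%), 101 higher above (1.85%) and 28 lower (0.513%). All 9 tested oligodendrocyte genes were higher in the upper spots, of which DESeq2 called 1, with a median log2 of 1.47, and their summed level was 17860 and 13710 CPM above and 9626 and 2479 below. Myrf, the transcription factor of myelination, was at 53.7 and 53.7 CPM against 15.9 and 9.70 (log2 2.12, SE 0.52, adjusted p = 0.011). Lower spots had more Slc17a6, at 36.9 and 30.1 CPM against 75.8 and 192 (log2 -2.08, SE 0.35, adjusted p = 3.3e-05), more Nr2f2, a nuclear receptor, at 20.1 and 90.1 CPM against 63.8 and 243 (log2 -1.48, SE 0.29, adjusted p = 0.00044), and more C1ql3, a secreted synaptic protein, at 6.71 and 12.9 CPM against 75.8 and 43.7. The mitochondrial share of UMIs was 14.7% and 15.0% above and 11.4% and 14.4% below. With mitochondrial genes left out before summing, 13 genes were called, and with the 33 uppermost spots against the 33 lowest none was. None of the 20 named genes kept its call with mitochondrial genes left out, and the part of myelin in the other differences was not tested.

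**Figure D4:**
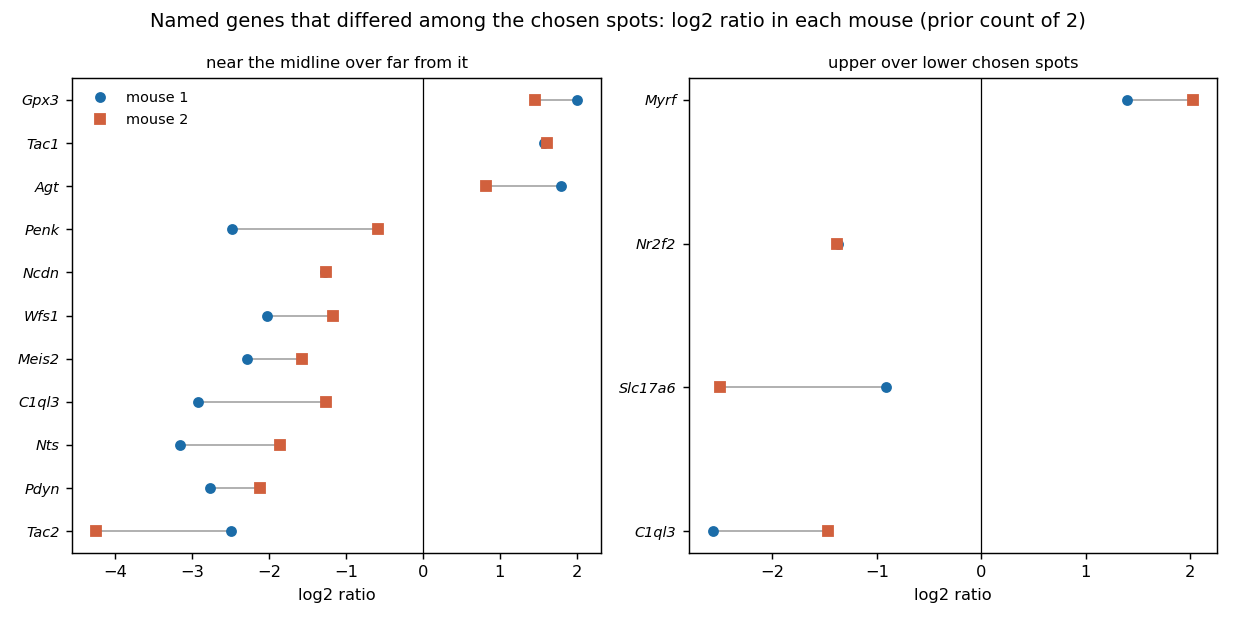
Log2 ratio (x axis, prior count of 2) in mouse 1 (circles) and mouse 2 (squares) of the genes named in the text (y axis) that differed between chosen spots near the midline and far from it (left) and between upper and lower chosen spots (right). Tac2 lies lowest on the left at -2.49 in mouse 1 and -4.25 in mouse 2, and Myrf lies right of 0 on the right.

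No gene passed the test between left and right chosen spots. The fit tested 4432 genes and called 0 (0.0%), with 116 at an unadjusted p under 0.05 (2.62%), and DESeq2 called 0 as well. Mouse 2 had 24 spots on the right and 76 on the left, so the test was uneven there. Fos was at 26.4 and 4.62 CPM on the left and 7.07 and 13.1 CPM on the right, and Arc at 7.53 and 6.16 CPM and 0 and 17.5 CPM, too few UMIs to test. C1qa, a complement gene of microglia, was at 102 and 63.2 CPM and 120.1 and 65.5 CPM. Igkc, an immunoglobulin gene, was at 45.2 and 0 CPM on the left and had no UMI on the right in either mouse.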

How the data were processed

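The authors deposited UMI counts as whole numbers for each gene in each spot. Space Ranger 1.3.1 wrote these matrices, per the file headers, and the submitters' processing notes name mm10. The annotation release was not given in the sources used here. Mouse 1 gave 30671753 UMIs over 3712 spots with at least 500 UMIs and mouse 2 gave 55315952 over 3548. The chosen spots held 548649 and 878115 UMIs. The deposited position files gave each spot's array row and column.

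The 30 gene lists, the members and the tests were chosen with earlier results of these data known. Spots were summed per section and set, since spots of a section are not replicates. Each comparison (chosen spots against all other spots, other ventral spots, and the 100 spots highest in Hcrt and Pmch; near against far from the midline; upper against lower; left against right) had 4 libraries. The midline was the line whose mirror image best matched expression, from 1000 variable genes and 20 components, tilted by -3.5 and 2 degrees. The main test was edgeR's quasi-likelihood test (version 4.0.16 under R 4.3.3) after filterByExpr and TMM scaling, with the section as block and a Benjamini-Hochberg adjusted p of 0.05. filterByExpr can keep a gene through the set where it is high. The 6 rule genes entered the fits and were left out of all counts. The SE is the log2 value over the root of F. The shared section is by design, since both sets of a fit come from it, so sections are paired by animal. DESeq2 1.42.0, the filter, the section term, mitochondrial genes, thinned depth, other numbers of spots and touching spots were alternatives. Log2 ratios of 1 mouse had 2 UMIs added as a prior, and a count of 0 was given a floor of 3 UMIs. The fits against all other spots and by distance from the midline were also run on simulated data. Other tools were Python 3.11.15, numpy 2.4.6, pandas 2.3.3, scipy 1.17.1 and matplotlib 3.10.9.

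Named genes were, per list, up to 3 with the largest change past the threshold and 1 sign in both mice, up to 12 others of at least 100 CPM with the largest rises, and for splits the 10 largest rises and falls. Fos, Arc, C1qa and Igkc were followed as values, and genes said to be named after their values were seen fall outside the rule. The lists hold 331 genes, all in the table of 32285; 78 genes share a symbol with another and were not named. Promoters and gene positions are from RefSeq, GRCm38.p6, matched by symbol. Some genes that met the rule are not reported here.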

Additional observations from a re-analysis of the deposited data

How the results depend on the processing

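With 2 sections of 1 group, 1 residual degree of freedom and fits that rest on a pooled spread, the counts of called genes moved with the tool. Without the section as a replicate block the counts fell to 378 of 15119 against all other spots, 178 against other ventral spots, 189 against Hcrt and Pmch spots and 0 for the midline and the row split, and the block changed no call of the left-right split, which stayed at 0. DESeq2 called 343, 130, 31, 3 and 5 in the same order. Thinned to the smallest library, the fits tested fewer genes and called 318, 308, 285, 7 and 85. The 200 top spots gave 402 against ventral spots and 1085 against Hcrt and Pmch spots. With no limit on Hcrt and Pmch, an alternative added after the data were seen, 3156 genes were called against all other spots, 955 of them among the 1176, and 2586 against ventral spots, 554 of them among the 733. Without mitochondrial genes the midline count was 10 and the row count 13, with 33 spots at each end they were 42 and 0, and with no low-count filter the left-right count was 1. Causes were not tested. The other alternatives stayed within 1.5 times. Counts without 1 section could not be given, because 2 libraries leave no residual degree of freedom. The named genes called kept their call in every alternative that gave a value in 37 of 76 cases against all other spots, 17 of 61 against ventral spots, 16 of 50 against Hcrt and Pmch spots, 0 of 14 for the midline and 0 of 20 for the row split.

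Some log2 values turned sign, with the cause not tested. With no limit on Hcrt and Pmch these were, against all other spots, Avp at 2.80, Malat1 at -0.22 and C1qa at -0.50. Against ventral spots they were Th at 1.18, Trh at 1.03, Avp at 2.24, Asb4 at 1.11, Itih3 at 0.86, Nkx2-1 at 1.40, Ppp1r1b at -0.12, Acta2 at -0.052, Malat1 at -0.19 and C1qa at -0.61. Against Hcrt and Pmch spots they were Kif5a at -0.28, Kif5b at -0.071, Itih3 at 0.18 and C1qb at -0.048. In the 200 top spots Hbb-bt was at 0.33 and Hbb-bs at 0.33 against all other spots, and Cldn11 at 0.53, Mbp at 0.56, Hbb-bt at 0.024, Hba-a1 at 0.036 and Hbb-bs at 0.059 against ventral spots. In mouse 1 alone, without mouse 2, Hbb-bs was at 0.15 against all other spots and Mbp at 0.19 against ventral spots, and without mouse 1 they were at -1.45 and -0.83.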
